A study of Rattus norvegicus with 12 samples.

Results

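The genes described here encode the mitochondrial respiratory chain and ATP synthase, followed on microarrays of rat hippocampal neurons after oxygen-glucose deprivation (OGD). The members are the genes on the array whose rat symbol starts with Nduf, Uqcr, Cox4, Cox5, Cox6, Cox7, Cox8 or Atp5, with the probe of highest mean log2 signal standing for each gene. There are 79 such genes among 15154 genes that the probes could be named for, and 78 of them are protein coding (Cox6c-ps1 is annotated as a pseudogene). They comprise 7 core subunits, 25 accessory subunits and 6 assembly factors of complex I, 8 genes of complex III, 17 of complex IV, Ndufa4, which is named for complex I but is associated with complex IV, and, for ATP synthase, 6 genes of the F1 part and its inhibitor and 9 of the membrane part and stalk (Fo). Another 36 protein coding genes with these symbol prefixes had no probe that could be named and were not analysed here.

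The cultures were primary hippocampal neurons from Wistar rat embryos (E18 in the labels, E18-E19 in the methods), grown for 14 to 15 days in Neurobasal medium. OGD cultures spent 2 h in a glucose-free buffer without oxygen, control cultures spent the same time in the buffer with glucose and in air, and both then recovered in conditioned medium for 7 h or 24 h. Each of the 4 groups (Ctrl 7 h, OGD 7 h, Ctrl 24 h and OGD 24 h) holds 3 arrays, hybridized with RNA from 3 independent cultures. On each of the 6 slides used here, a control and an OGD array that share time and replicate number sat side by side. The RNA is that of the whole culture, in which fewer cells of a type and less RNA per cell cannot be told apart.

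In the inner mitochondrial membrane, complex I takes electrons from NADH, complex III passes them on to cytochrome c and complex IV gives them to oxygen, while ATP synthase uses the resulting proton gradient to make ATP. The members are all encoded in the nucleus and their products are imported into mitochondria, where they join the few subunits that mitochondrial DNA encodes. Neurons depend on this pathway for most of their ATP, and OGD withdraws both its fuel and its terminal electron acceptor.

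Promoters of respiratory genes are known for binding sites of nuclear respiratory factor 1 (NRF1) and of ETS family factors such as GABP. Among the 69 members with a promoter sequence from RefSeq (assembly GRCr8), the pattern GCGC, A, any base, GCGC, written without gaps and used here for NRF1, was found on either strand within the 250 bases upstream of the gene start in 11 (15.9%), against 6.60% of 12384 named genes and 4.17% of all 27457 promoters. The letters CCGGAAG, used for ETS factors, were found on either strand in 19 (27.5%), against 11.3% of named genes and 7.74% of all promoters. For NRF1 and ETS, among 3752 other genes with a GC content within the members' interquartile range the shares were 7.06% and 14.0%. By complex, the NRF1 letters were present in 5 of 23 accessory subunits of complex I, 3 of 8 genes of the Fo part and 0 of 13 genes of complex IV. The 3 sequences shown are those of Uqcrc1 (chr8:118467973-118468222, plus strand) and Atp5f1b (chr7:1099808-1100057, plus strand), lower at 7 h with and without a match, and of Atp5me (chr14:1464610-1464859, plus strand), which holds both motifs. Capitals mark the NRF1 pattern on either strand and, in Atp5me alone, the reverse complement of the ETS letters near the gene start. Those 2 motifs do not overlap in the sequences shown. Letters for YY1 (AAGATGGC), for the hypoxia response element (ACGTG) and for a TATA box (TATAAA) were also searched on both strands and were found in 2.90%, 23.2% and 8.70% of members and in 1.79%, 19.2% and 11.5% of named genes. They are not marked.

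Uqcrc1: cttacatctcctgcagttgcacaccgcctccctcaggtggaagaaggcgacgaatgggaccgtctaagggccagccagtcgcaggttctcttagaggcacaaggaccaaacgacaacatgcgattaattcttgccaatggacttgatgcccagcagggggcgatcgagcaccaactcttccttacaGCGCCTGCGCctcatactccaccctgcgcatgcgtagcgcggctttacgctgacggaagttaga
Atp5f1b: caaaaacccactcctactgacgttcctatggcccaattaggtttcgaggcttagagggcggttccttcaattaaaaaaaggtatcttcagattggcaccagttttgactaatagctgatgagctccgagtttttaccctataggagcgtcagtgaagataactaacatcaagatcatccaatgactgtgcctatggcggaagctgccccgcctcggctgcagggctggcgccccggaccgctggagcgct
Atp5me: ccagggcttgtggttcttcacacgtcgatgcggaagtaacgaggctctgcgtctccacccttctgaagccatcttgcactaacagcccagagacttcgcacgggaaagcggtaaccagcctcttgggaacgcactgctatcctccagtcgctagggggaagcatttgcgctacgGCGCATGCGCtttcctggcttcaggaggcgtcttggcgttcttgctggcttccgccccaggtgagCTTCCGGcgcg

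A match is a description of these letters and does not show that a factor binds. Among the members with no saturated spot, the 6 with the NRF1 letters had a median difference of −0.11 at 7 h and −0.15 at 24 h (log2, OGD minus control), and the 44 without had −0.08 and −0.18. With the ETS letters the medians were −0.06 and −0.11 in 13 members, and without them −0.09 and −0.22 in 37. The members with and without either motif therefore lay close to each other at both times.

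The members were among the brightest genes on the arrays. Their median signal over the 12 arrays was 14.77 on the log2 scale before centring, above 97.2% of named genes, and 63 of the 79 lay in the top decile. All but Cox8c, the testis isoform of a small complex IV subunit, were well above background on every array, whereas Cox8c was so on none. The scanner marked a saturated spot on at least 1 array for 24 members, and 55 had none. The median spot intensity was 447 to 660 in Ctrl 7 h, 234 to 426 in OGD 7 h, 402 to 477 in Ctrl 24 h and 131 to 546 in OGD 24 h, with the lowest value in OGD 24 h replicate 1. The share of spots well above background was 78.3% to 87.1%, and that of saturated spots 0.569% to 2.11%.

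Centring subtracts the median of each array, and this median was lower after OGD by 0.64 at 7 h and 0.49 at 24 h (differences of mean log2 medians, −0.64 and −0.49). A spot that reads at the top of the scale on every array therefore appears higher after OGD once the arrays are centred. The 10 members saturated on 9 or more arrays had a median reading before centring of 15.91 in Ctrl 7 h and 15.86 in OGD 7 h. Cox6a1, a subunit of complex IV and the only member saturated on all 12 arrays, read 16.20, 16.19 and 16.21 in Ctrl 7 h and 16.25, 16.23 and 16.23 in OGD 7 h. Where all control arrays were saturated the control level is a lower bound, so that the text prints no fold of a single such gene at 7 h. This concerned 15 members, 7 of which were saturated on all OGD arrays of 7 h too.

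**Figure D1:**
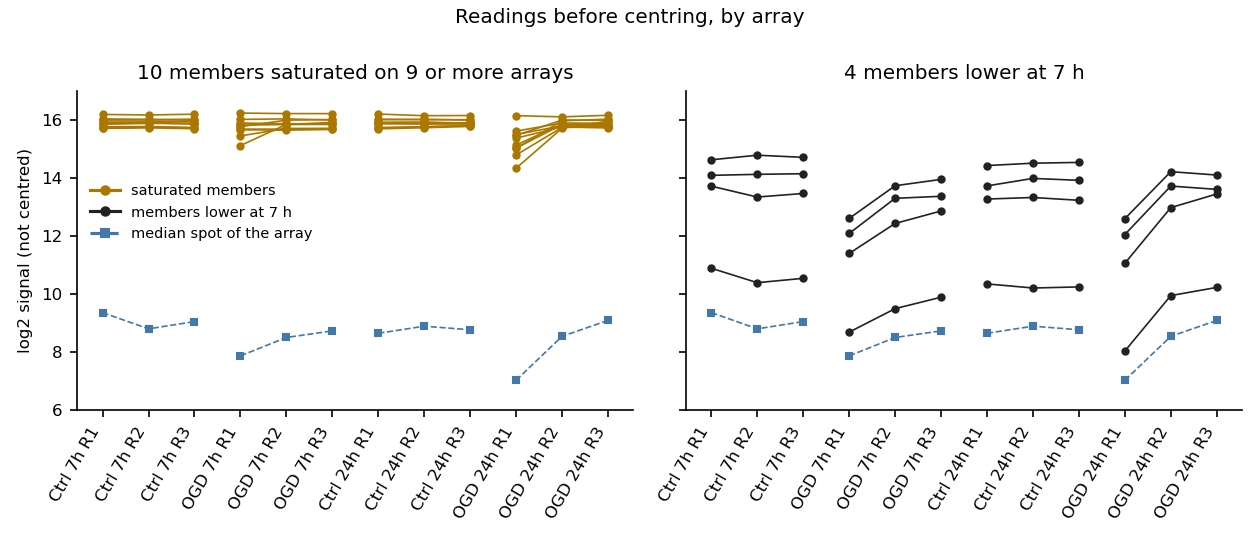
Log2 signal before centring (vertical axis) on each of the 12 arrays (horizontal axis) for the 10 members saturated on 9 or more arrays (left) and the 4 members lower at 7 h (right), with the median spot of each array as squares. The saturated members stayed near 16 on nearly all arrays, with readings down to 14.35 in OGD 24 h, while the other 4 members and the array medians were lower in OGD 7 h.

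At 7 h, 4 members had lower levels after OGD at an unadjusted limma p under 0.05, against 7.03% of all 30367 probes. They were Atp5f1b, the catalytic beta subunit of ATP synthase, Uqcrc1, a core protein of complex III, Ndufa9, an accessory subunit of complex I, and Ndufaf7, a methyltransferase needed to assemble complex I. Higher readings at the same p were found for 9 members, against 4.79% of probes (Atp5mc2, Atp5me, Atp5mg, Atp5po, Ndufb8, Ndufs5, Uqcrh, Cox4i1 and Cox6c). Of these 9, 8 had a saturated spot and 7 were saturated on all 3 control arrays, so that their direction cannot be read from these arrays. No member passed after Benjamini-Hochberg adjustment over all probes (lowest adjusted p = 0.333, limma), and none combined an unadjusted p under 0.05 with a fold of 2, which 3.74% of probes did.

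The ninth, Atp5mc2, encodes a copy of the membrane ring subunit c and had no saturated mark. Its centred levels were 7.82, 8.19 and 7.86 in Ctrl 7 h and 8.60, 8.54 and 8.27 in OGD 7 h, a difference of 0.52 ± 0.21 (log2, SE, n = 3 per group; limma, adjusted p = 0.381). Before centring it read 16.02, 15.94 and 15.92 in control and 15.52, 16.04 and 15.93 after OGD, and all but the lowest of these readings lay above 15.66, the lowest reading at which a member was marked saturated. The call was lost without Ctrl replicate 1 (0.45), Ctrl replicate 3 (0.47), OGD replicate 1 (0.45) or OGD replicate 2 (0.48). A further probe of the same gene, saturated on 6 arrays, gave 0.19. Among the 52 members with no saturated spot and at least 1 control array of 7 h below 15.66, 0 were higher and 4 were lower.

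The 55 members without a saturated spot had a median difference of −0.07 at 7 h, with an interquartile range from −0.20 to 0.09. The 1333 other genes without a saturated spot and with signals in the interquartile range of these members had −0.10, all named genes −0.11 and all probes −0.06. Of the 55 members, 1.82% were higher and 7.27% lower by the test, against 2.33% and 2.78% of the genes of equal brightness. The centred readings of the 24 members with a saturated spot had a median of 0.48, and those of the 259 other genes with a saturated spot had 0.56. Saturated on 9 or more arrays, 10 members had a median of 0.61 and 119 other genes 0.63. The members without a saturated spot thus lay close to other genes of their brightness. Readings at the ceiling do not compare transcripts. Before centring, the median difference at 7 h was −0.04 for the 13 members saturated on 7 to 12 arrays. It was −0.40 for the 11 members saturated on 1 to 6 arrays. How far the ceiling and the shift of the array medians set the centred readings of each member was not tested.

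**Figure D2:**
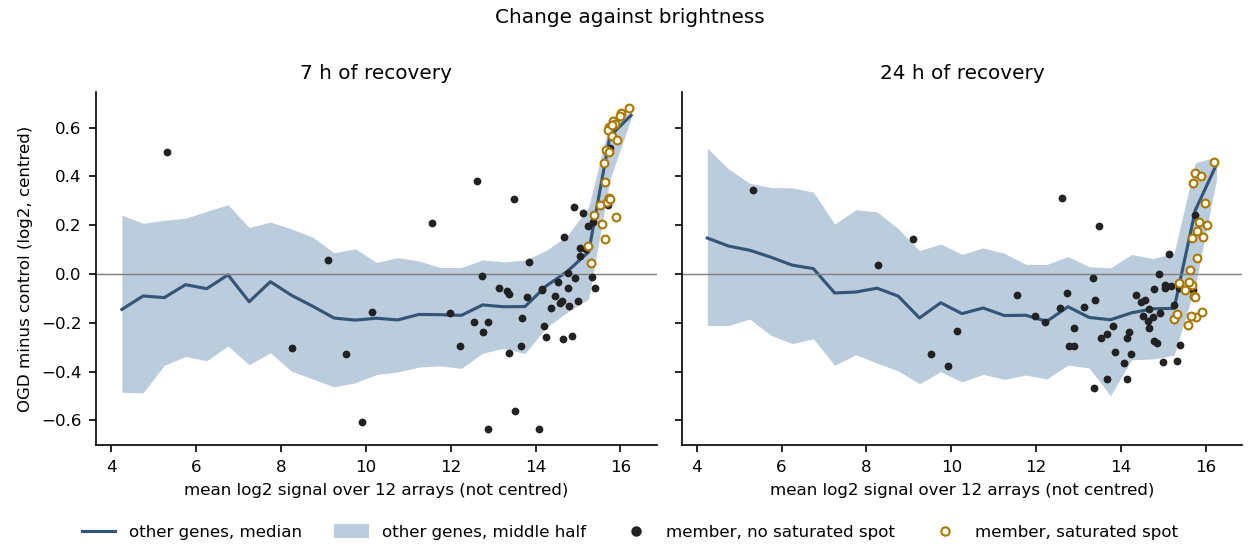
Difference between OGD and control (log2, centred; vertical axis) against the mean signal before centring (horizontal axis) for the members (points, open where a spot was saturated), over the median (line) and interquartile range (band) of the other named genes in bins of brightness. In the highest bins the other genes rose to medians of 0.56 and 0.65 at 7 h and the members followed them, whereas members without a saturated spot lay around the line at both times (Cox8c, at a mean signal of 1.77, is outside the plot).

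Without the test, the order of the arrays gave a similar picture. All 3 OGD arrays were above all 3 control arrays at 7 h for 19 members (10.6% of probes), 16 of them with a saturated spot, and below them for 9 members (15.5% of probes), none with a saturated spot. At 24 h the groups were separate upward for 0 members (10.9% of probes) and downward for 4 members (7.02% of probes), namely Cox6b2, Ndufs7, Ndufab1 and Ndufa11. No member had lower levels by the test at 7 h without OGD 7 h replicate 1, where 0 of the 4 were called.

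Of the 38 genes of complex I, 26 were below 0 at 7 h and 33 at 24 h, where 866 and 941 of the 1333 other genes of equal brightness were below 0. Among the 7 core subunits, which include those that carry the flavin and the iron-sulfur clusters or bind ubiquinone, 0 were called at either time. Their median was −0.18 at 7 h and −0.28 at 24 h, and all 7 were below 0 at 24 h, from −0.47 (Ndufs1) to −0.20 (Ndufs8). The 24 h value came mainly from the slide of replicate 1, with medians within the slides of −0.82, −0.09 and 0.04 for replicates 1, 2 and 3, and without OGD 24 h replicate 1 the median was −0.09. Ndufv1, which holds the NADH binding site, had levels of 7.94, 7.59 and 7.50 in Ctrl 24 h and 7.00, 7.45 and 7.51 in OGD 24 h. OGD replicates 1 and 2 lay below all controls, replicate 2 narrowly, and OGD replicate 3 did not. The difference of −0.36 ± 0.20 (SE) did not pass the test (limma, adjusted p = 0.445). Ndufs7 was 6.78, 6.56 and 6.52 in Ctrl 24 h and 5.96, 6.47 and 6.47 in OGD 24 h, without overlap and with a difference of −0.32 ± 0.18 (limma, adjusted p = 0.45).

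Of the 25 accessory subunits of complex I, 1 was lower and 2 had higher readings at 7 h, and 0 were called at 24 h. Ndufa9 had levels of 5.53, 5.60 and 5.42 in Ctrl 7 h and 4.49, 4.94 and 5.21 in OGD 7 h. Each OGD array was below every control array, and the difference was −0.64 ± 0.24 (SE; limma, adjusted p = 0.354). Within the slides it was −1.04, −0.66 and −0.21, but with the slide as a fixed block it was not called. Without OGD replicate 1 it was −0.44 and no longer called. The call was also lost without Ctrl replicate 1 (−0.63) or Ctrl replicate 2 (−0.59). At 24 h it was −0.30 ± 0.24 (limma, adjusted p = 0.586), with only OGD replicate 1 below the controls.

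The higher readings were those of Ndufb8, saturated on all 6 arrays of 7 h, and Ndufs5, an accessory subunit on the intermembrane side. Ndufs5 read 7.81, 8.27 and 8.0 in Ctrl 7 h, saturated on 2 of these arrays, and 8.74, 8.53 and 8.31 in OGD 7 h (difference 0.50 ± 0.20; limma, adjusted p = 0.372). A dimmer probe of Ndufs5 without any saturated spot gave 0.06 ± 0.17 and was not called. The difference of Ndufs5 depended on the probe, and its call was lost without Ctrl replicate 1 (0.39), Ctrl replicate 3 (0.49), OGD replicate 1 (0.39) or OGD replicate 2 (0.50), as well as with the slide as a fixed block. Over the 18 accessory subunits without a saturated spot the median was −0.06 at 7 h and −0.16 at 24 h, and 16 and 17 of them were below 0.

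Among the 6 assembly factors of complex I, Ndufaf7 was lower at 7 h. It had levels of 2.70, 2.65 and 2.49 in Ctrl 7 h and 1.77, 2.0 and 2.23 in OGD 7 h, again without overlap (−0.61 ± 0.22, SE; limma, adjusted p = 0.333). Within the slides the differences were −0.92, −0.64 and −0.26, and without OGD replicate 1 the value was −0.49 and without Ctrl replicate 1 −0.57, neither of them called. With the slide as a fixed block Ndufaf7 was not called either. A second probe of Ndufaf7 gave −0.33 ± 0.28 and was not called. The other 5 factors were not called, from −0.30 (Ndufaf1) to 0.31 (Ndufaf8) at 7 h.

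**Figure D3:**
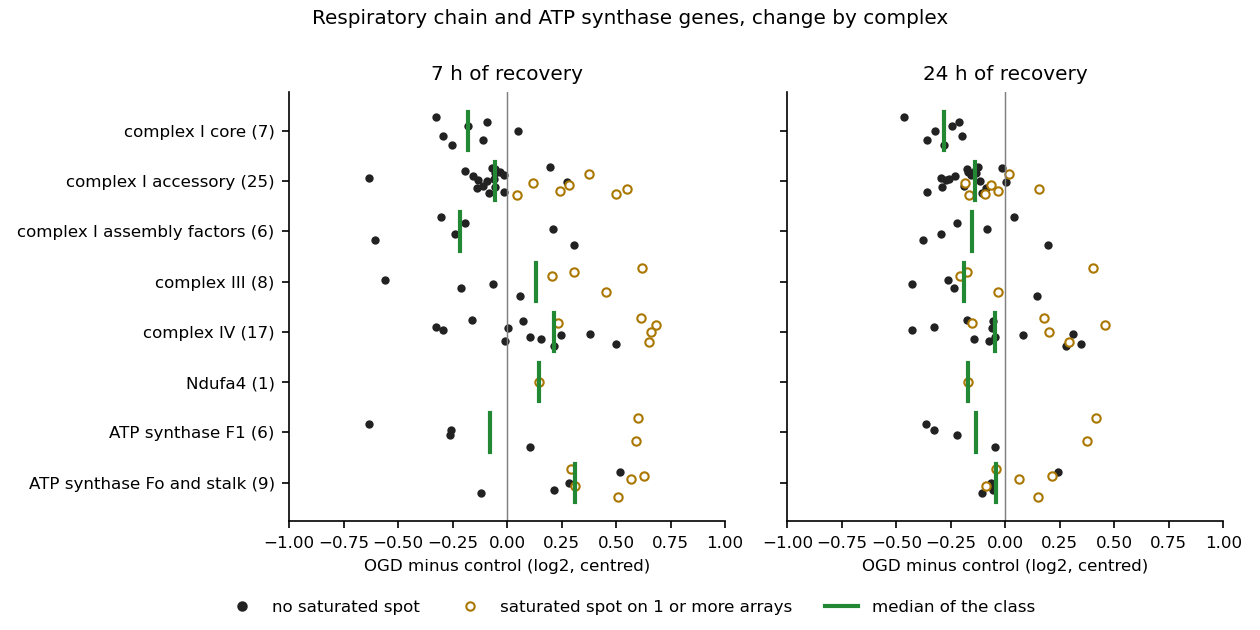
Difference between OGD and control (log2, centred; horizontal axis) at 7 h (left) and 24 h (right) for each of the 79 members (points, open where a spot was saturated) in each class (vertical axis, number of members in brackets), with the class median as a bar. Open points lie above 0 at 7 h wherever a class holds any (the core subunits and assembly factors of complex I hold none), and all 7 core subunits of complex I lie below 0 at 24 h.

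Complex III held 1 lower and 1 higher reading among 8 members at 7 h and 0 called at 24 h. Uqcrc1 had levels of 5.90, 6.39 and 6.10 in Ctrl 7 h and 5.18, 5.81 and 5.72 in OGD 7 h. All OGD arrays were below all control arrays (−0.56 ± 0.23, SE; limma, adjusted p = 0.378), by −0.72, −0.57 and −0.38 within the slides. At 24 h it was −0.26 ± 0.23 (limma, adjusted p = 0.604). Without OGD replicate 1 the 7 h value was −0.36, without Ctrl replicate 2 −0.43 and without Ctrl replicate 3 −0.57, and each time the call was lost. The partner core protein Uqcrc2 differed by −0.07 at 7 h and by −0.43 at 24 h (limma, adjusted p = 0.553), where OGD replicate 1 at 5.61 stood apart from 6.66 and 6.95 in the other OGD arrays. Uqcrfs1, the Rieske iron-sulfur protein, had −0.21 and −0.24. The higher reading was that of Uqcrh, the hinge protein, saturated on all 3 control arrays.

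In complex IV, 2 of 17 members had higher readings at 7 h (Cox4i1 and Cox6c, both saturated on all control arrays) and 1 was lower at 24 h. The latter was Cox6b2, described as the testis isoform of subunit 6B, with levels of 6.66, 6.67 and 6.41 in Ctrl 24 h and 6.16, 6.06 and 6.23 in OGD 24 h. The groups did not overlap, and the difference of −0.43 ± 0.16 (SE; limma, adjusted p = 0.315) appeared in each slide, as −0.50, −0.61 and −0.18. At this time 6.19% of probes were lower and 7.51% higher by the same test, and among the members 1 and 0. At 7 h Cox6b2 differed by −0.30 ± 0.16 (limma, adjusted p = 0.498). In the control cultures alone its level was higher at 24 h than at 7 h by 0.59 (limma, adjusted p = 0.162). With the slide as a fixed block Cox6b2 was not called at 24 h. Nor was it called without Ctrl replicate 1 (−0.39), Ctrl replicate 2 (−0.38) or OGD replicate 2 (−0.39). The common isoform Cox6b1 was 7.39, 7.33 and 7.22 in Ctrl 24 h and 7.28, 7.23 and 7.25 in OGD 24 h, a difference of −0.06 ± 0.14 (limma, adjusted p = 0.892).

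The other isoforms of complex IV did not pass the test. Cox4i2, the isoform known from lung and from low oxygen, was 4.53, 4.54 and 4.59 in Ctrl 7 h and 4.66, 4.34 and 4.18 in OGD 7 h, with differences of −0.16 ± 0.24 at 7 h and −0.17 ± 0.24 at 24 h. Cox6a2, the isoform of heart and skeletal muscle, differed by −0.33 ± 0.45 at both times. Cox8b, another muscle isoform, was dim, with a mean log2 signal of 5.32 before centring, and differed by 0.50 ± 0.23 at 7 h (limma, adjusted p = 0.438) and 0.35 ± 0.23 at 24 h (adjusted p = 0.515). Its 3 OGD arrays of 7 h lay above its 3 controls, at −1.85, −2.09 and −1.94 against −2.93, −2.27 and −2.17. Among the subunit 7 genes, Cox7a2 differed by 0.25 and 0.08, Cox7a2l, involved in supercomplex formation, by 0.11 and −0.05, and Cox7b by 0.15 and −0.14. Ndufa4, saturated on 1 array, had 0.14 ± 0.21 at 7 h and −0.17 ± 0.21 at 24 h.

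In the F1 part of ATP synthase, 1 of 6 members was lower at 7 h. Atp5f1b had levels of 6.44, 7.05 and 6.67 in Ctrl 7 h and 5.70, 6.25 and 6.30 in OGD 7 h, so that each OGD array lay below each control array (−0.64 ± 0.24, SE; limma, adjusted p = 0.343). Within the slides it was −0.74, −0.80 and −0.37. At 24 h it was −0.37 ± 0.24 (limma, adjusted p = 0.493), with within-slide values of −0.51, 0.03 and −0.61. The 7 h call was lost without Ctrl replicate 2 (−0.47) and without OGD replicate 1 (−0.44). Atp5f1d, the delta subunit, had levels of 6.97, 7.13 and 6.94 in Ctrl 7 h and 6.65, 6.76 and 6.83 in OGD 7 h, without overlap, and a difference of −0.26 ± 0.16 that did not pass the test (limma, adjusted p = 0.513). Atp5if1, the inhibitor of ATP hydrolysis, differed by 0.10 ± 0.19 and −0.05 ± 0.19.

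In the Fo part and stalk, 4 of 9 members had higher readings at 7 h, namely Atp5mc2 and the saturated Atp5me, Atp5mg and Atp5po, and 0 were called at 24 h. Over the 4 members without a saturated spot the medians were 0.25 at 7 h and −0.06 at 24 h. Among them, Atp5mc2 and Atp5mk had mean signals of 15.75 and 15.71. Both lie above 15.66, the lowest reading at which a member was marked saturated. Other named genes with mean signals from 15.5 to 16 had medians of 0.56 at 7 h and 0.26 at 24 h. How far the ceiling set these values was not tested. A probe of Atp5mg without a saturated spot gave 0.31 ± 0.20 at 7 h and was not called. Atp5mc1, another copy of subunit c, was saturated on all control arrays of both times.

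**Figure D4:**
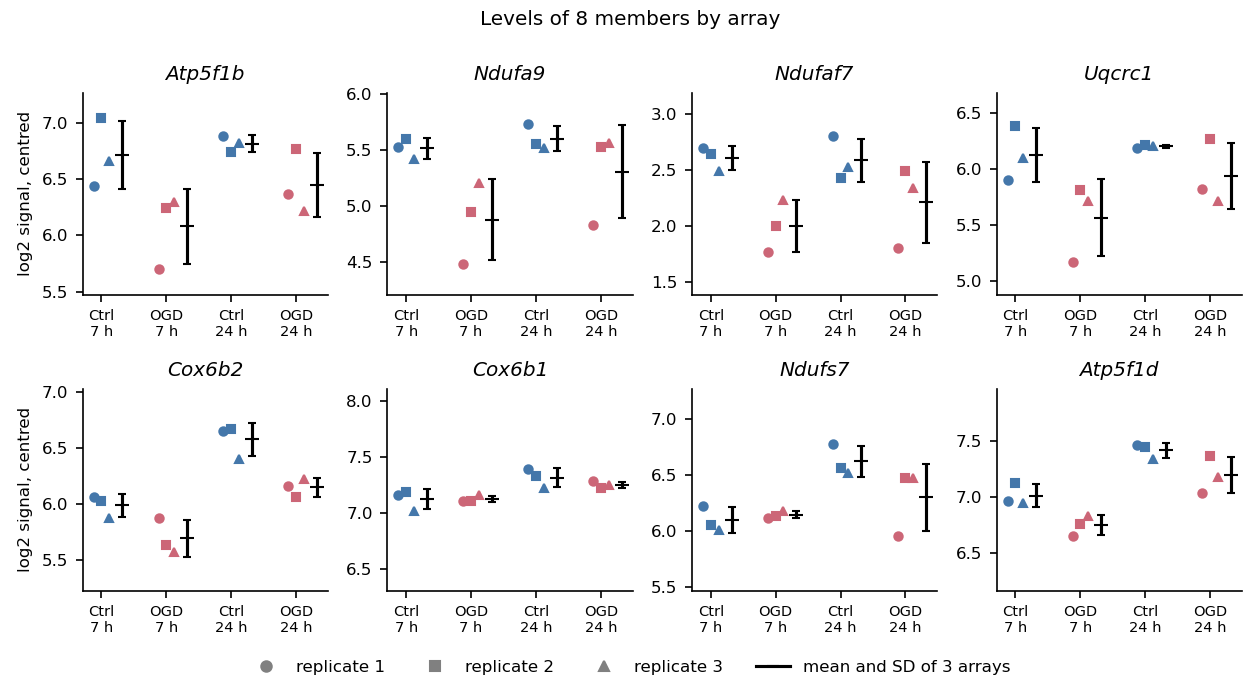
Centred log2 signal (vertical axis) in the 3 arrays of each group (horizontal axis; replicates by symbol) with mean and SD, for the 5 members lower at 7 h or 24 h and for Cox6b1, Ndufs7 and Atp5f1d. Atp5f1b, Ndufa9, Ndufaf7 and Uqcrc1 do not overlap between the groups at 7 h and do at 24 h, Cox6b2 does not overlap at 24 h, and Cox6b1 stays within 7.02 and 7.39 throughout.

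At 24 h the members as a whole lay slightly below 0, as did other bright genes. The median of the 55 members without a saturated spot was −0.17, with 46 of them below 0, and that of the 1333 other genes of equal brightness was −0.17, against 0.01 for all probes. The test called 1.82% of the 55 members lower and 0 higher, against 10.1% and 3.98% of these other genes, a difference that was not tested. The lowest adjusted p among the members was 0.315 (limma), and none had a fold of 2 together with an unadjusted p under 0.05, which 5.67% of probes did. The within-slide medians of the 55 members were −0.47, −0.09 and 0.16 at 24 h and −0.24, −0.11 and 0.15 at 7 h. The slides thus differed in sign at both times, with replicate 1 lowest. The SD over slides (0.32 and 0.20) was larger than the median at either time.

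**Figure D5:**
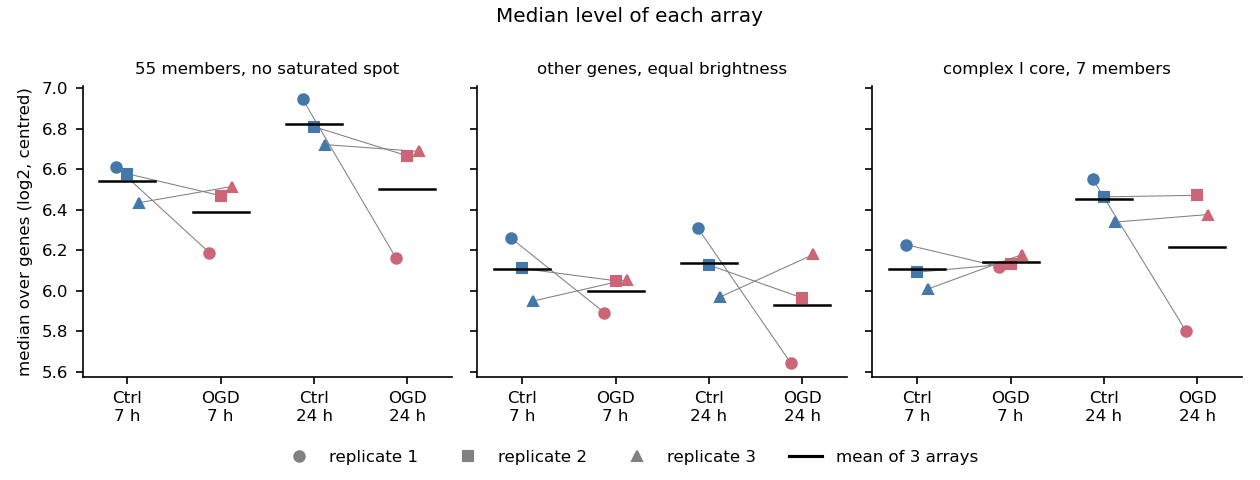
Median centred log2 level over genes (vertical axis) in each array of the 4 groups (horizontal axis), for the 55 members without a saturated spot, the 1333 other genes of equal brightness and the 7 core subunits of complex I, with lines joining the arrays of a slide and bars for the group means. OGD 24 h replicate 1 is the lowest array in all 3 panels, at 6.16 for the 55 members against 6.67 and 6.69 in the other 2 OGD 24 h arrays.

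The OGD effects at 24 h and 7 h were also compared with each other, since a call at a single time does not show that the times differ. In this interaction 0 members were called at an unadjusted p under 0.05 (limma), where 2.18% of probes were higher and 1.4% lower. The lowest p, above this threshold, was that of Ndufs5, whose control spots were saturated on 2 arrays of 7 h. Of the 55 members without a saturated spot, 36 were below 0 at both times and 8 above. Taken by time, 37 of these members were below 0 at 7 h and 46 at 24 h. Of the 1333 other genes of equal brightness, 866 and 941 were. How many of those genes were below 0 at both times was not counted.

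Recovery time alone was examined in the control cultures. Between 7 h and 24 h, 3 members were higher at 24 h (5.65% of probes) and 0 lower (9.07% of probes). These were Cox6b2 (0.59; limma, adjusted p = 0.162), Ndufs7 (0.53; adjusted p = 0.251) and Atp5f1d (0.40; adjusted p = 0.296), of which none passed after adjustment.

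For 17 members and for Atp5f1d, 23 further probes were present, and 19 of them had the sign of the chosen probe at 7 h and 19 at 24 h. The largest gap was in Atp5f1d, whose dim second probe (mean log2 signal 6.62), paired with this gene by the study and not by RefSeq, differed by −1.33 ± 0.25 at 7 h and −0.72 ± 0.25 at 24 h (limma, adjusted p = 0.294), called at both times by the unadjusted test. The bright probe of the same gene gave −0.26 and −0.22. Both were below 0, and which of them follows the transcript was not tested.

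The rest of the pathway was examined through lists of genes outside the symbol prefixes. Among 14 measured genes of complex II, cytochrome c, the electron-transferring flavoprotein and coenzyme Q, 1 was lower at 7 h (Coq10a, a coenzyme Q chaperone, −0.73 ± 0.27, adjusted p = 0.333) and 1 higher at 24 h (Etfa, the flavoprotein alpha subunit, 0.52 ± 0.22, adjusted p = 0.351, limma), with medians of −0.04 at both times, where 7.03% of probes were lower at 7 h and 7.51% higher at 24 h. Sdha, the flavoprotein of complex II, had −0.40 ± 0.28 and −0.38 ± 0.28 and did not pass the test.

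Assembly factors outside the prefixes were lower in 4 of 30 at 7 h and 0 higher, with a median of −0.22 and 25 below 0. Of all probes 7.03% were lower, and all named genes had a median of −0.11 with 9070 of 15154 below 0. Other named genes had medians of −0.19 at signals from 9.5 to 10 (log2), −0.17 from 12 to 12.5 and −0.13 from 13 to 13.5. The factors themselves spread over a wide range of signals and were not matched by brightness. Bcs1l, the chaperone that inserts the Rieske protein into complex III, had 1.62, 1.75 and 1.55 in Ctrl 7 h and 0.73, 0.96 and 1.1 in OGD 7 h, without overlap (−0.71 ± 0.18; limma, adjusted p = 0.255). The others were Nubpl, an iron-sulfur protein for complex I assembly (−0.63), Cox11, a copper chaperone of complex IV (−0.46), and Atpaf1, a chaperone of ATP synthase F1 (−0.36). At 24 h Nubpl alone was called (−0.93 ± 0.27, limma, adjusted p = 0.272), with 3.82, 3.40 and 3.58 in control and 2.18, 2.52 and 3.30 after OGD, and the median was −0.14.

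Of 23 listed mitochondrial regulators, 2 were lower at 7 h and 4 at 24 h, and 0 were higher, where 7.03% and 6.19% of probes were lower. Beside regulators of mitochondrial gene expression, this list also held Polg and Pdk1. Ppargc1b, a coactivator of respiratory genes, was 1.28, 1.46 and 1.27 in Ctrl 24 h and −0.10, 0.93 and 0.65 in OGD 24 h (−0.84 ± 0.24; limma, adjusted p = 0.269). Its relative Ppargc1a had −0.66 ± 0.25 at 24 h (limma, adjusted p = 0.314) and −0.00 at 7 h. Polrmt, the mitochondrial RNA polymerase, had −0.58 at 24 h, Polg, the mitochondrial DNA polymerase, −0.56 at 7 h, and Pdk1, a kinase that restrains pyruvate entry into the citric acid cycle, −0.61 and −0.51. The factors Nrf1 (−0.08 and 0.11), Gabpa (0.04 and 0.12) and Tfam (0.02 and 0.11) did not pass the test at either time.

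Markers of cell types are given because the RNA is from whole cultures. Of 19 neuronal markers, all were well above background on the control arrays, and 10 were lower at 24 h (median −0.62), against 6.19% of all probes. The summed level of the 19 markers (log2 of the mean centred signal) was 6.12 to 6.45 in Ctrl 24 h and 5.55 to 6.16 in OGD 24 h. At 7 h the median was −0.34, 2 were lower and 1, Uchl1, was higher in a spot saturated on 10 arrays, and the summed levels were 5.90 to 6.28 in control and 6.06 to 6.35 after OGD. Of all probes 7.03% were lower and 4.79% higher at 7 h. Without the 4 markers that had a saturated spot (Uchl1, Stmn2, Gap43 and Nefm) the summed levels were 4.42 to 4.83 in Ctrl 7 h, 4.10 to 4.61 in OGD 7 h, 4.53 to 5.06 in Ctrl 24 h and 3.35 to 4.49 in OGD 24 h. Rbfox3, which encodes the neuronal nuclear antigen NeuN, had −0.50 and −0.59 and was not called.

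Markers of other cells were present as well. Their calls can be set against the array as a whole. At 7 h the same test called 4.79% of all 30367 probes up and 7.03% down. For 24 h these shares came to 7.51% up and 6.19% down. Astrocyte markers had medians of 0.16 and −0.11 over 14 genes, with 2 higher at 7 h (Aldoc, saturated on 11 arrays, and Slc1a3, saturated on 5), and summed levels of 6.45 to 6.63 in Ctrl 7 h, 6.76 to 7.06 in OGD 7 h, 6.49 to 6.90 in Ctrl 24 h and 6.42 to 7.05 in OGD 24 h. Without the 3 astrocyte markers that had a saturated spot (Aldoc, Slc1a3 and Aqp4) the summed levels were 5.76 to 6.0, 5.90 to 6.26, 5.60 to 6.40 and 5.38 to 6.61 in the same order. Microglial markers were dimmer, with 1 of 16 higher at 7 h and 2 at 24 h, and summed levels of 0.38 to 0.51 in Ctrl 7 h, 0.63 to 1.2 in OGD 7 h, 0.64 to 0.97 in Ctrl 24 h and 1.09 to 1.44 in OGD 24 h. Oligodendrocyte markers (14 genes) had 1 higher and 2 lower at 7 h and 1 higher at 24 h, with summed levels of 3.99 to 4.04, 3.39 to 4.21, 4.22 to 4.69 and 4.50 to 5.13 in the same order of groups. Without the 1 oligodendrocyte marker that had a saturated spot they were 3.48 to 3.58, 2.89 to 3.62, 3.41 to 3.83 and 3.68 to 4.21. Vascular and fibroblast markers (14 genes) had 3 lower at 7 h and 3 higher at 24 h, with 2.21 to 3.65, 2.80 to 3.95, 1.76 to 3.6 and 3.52 to 4.37. The part of these cell types in the levels of the respiratory genes was not tested.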

How the data were processed

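The members and gene lists were chosen with earlier results of these data known. The authors labeled 200 ng of RNA per culture with Cy3 and read the 12 one-color Agilent arrays with Feature Extraction. The deposited intensity values (processed signal per spot) were background-subtracted and detrended by that software and not normalized between arrays. The authors' deposited log2 values are the same intensities after median centring, with 1 constant per array, and served as an alternative.

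After outlier spots were removed, log2 signals were averaged within probes and each array was centred on the median of its 30367 non-control probes. Of these probes 18004 were named through their accession and RefSeq (GRCr8), giving 15154 symbols. All groups were fitted in 1 model with limma 3.58.1 (R 4.3.3, statmod 1.5.0), without a replicate block, and printed p-values are two-sided limma values after Benjamini-Hochberg adjustment over all probes. Calls use an unadjusted p under 0.05. SE values are those of the fit. The fit was tested on simulated data. The number of arrays, 3 per group, limits the precision. Named genes are the 2 members of each class and time with the lowest p, any member with a fold of 2 that was called, a list of isoforms and paralogs, and the called genes of the lists. Ndufs1, Ndufa11, Ndufab1, Ndufaf1, Uqcrfs1, Atp5mk, Sdha, Nrf1, Gabpa, Tfam and Rbfox3, outside this rule, were chosen after their values were seen.

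Alternatives were other centrings and normalizations (75th percentile, quantile, cyclic loess, spike-in probes), normexp on the median signal with an offset of 50 (the mean signal was not a column used here), filters on dim probes (well above background on 3 arrays) and on saturated spots, the mean over probes, the methods' t-test, and other fits, blocks, weights and samples. Summed marker levels without saturated genes were chosen after seeing the data.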

Additional observations from a re-analysis of the deposited data

Results flagged for a closer look

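No member differed between 7 h and 24 h in its OGD effect by the unadjusted interaction test. Among the cell type markers 4 genes did, at an unadjusted limma p under 0.05, and none passed after adjustment. They were 2 of 19 neuronal, 1 of 16 microglial and 1 of 14 vascular and fibroblast markers. None of the 14 astrocyte or 14 oligodendrocyte markers was called. Of all probes 2.18% were higher and 1.4% lower in this interaction. Map2, a dendritic microtubule protein of neurons, differed by 0.26 at 7 h and −0.45 at 24 h, a change of −0.71 in the OGD effect. Camk2a, a kinase of excitatory neurons, differed by 0.15 and −0.65, a change of −0.80. Cx3cr1, the microglial fractalkine receptor, differed by 1.02 and 0.14, a change of −0.88. Pdgfrb, a receptor of pericytes, differed by −0.10 and 1.34, a change of 1.44.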

How the results depend on the processing

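Signals at the top of the scale and 3 arrays per group limit what these data resolve. Counts are of members called at an unadjusted limma p under 0.05, and the counts of lower members are the same with saturated members left aside. Of all probes 11.8% were called at 7 h and 13.7% at 24 h in the main fit. The shares were 45.7% and 34.7% with array weights, 19.2% and 4.86% with normexp, and 1.15% and 1.78% with spike-in scaling. They were 10.4% and 5.74% with the slides of replicates 2 and 3 only. Without OGD 24 h replicate 1 the 7 h share was 21.1%. The median difference of all probes, −0.06 at 7 h and 0.01 at 24 h, became 0.06 and 0.12 with the 75th percentile and −0.83 and −1.01 with spike-in scaling. Centring on the 75th percentile gave 2 lower members at 7 h, 0 at 24 h and a median over members of 0.16 at 7 h. Quantile normalization gave 2 higher at 7 h (2 unsaturated), 3 lower at 24 h and a 7 h median of −0.15, and cyclic loess gave 3 higher (2 unsaturated), 2 lower at 24 h and −0.066. Normexp on the median signal gave 1 higher at 7 h, 0 lower at 24 h, medians of −0.53 and −0.54 over all members and −0.65 and −0.56 over the unsaturated. Leaving out saturated spots gave 1 higher and a 7 h median of −0.088. The mean over probes gave 0 higher among unsaturated members. The authors' values and the intensity trend each gave 1 member in the difference between times. The methods' t-test gave 2 lower at 24 h and each time alone 0. Array weights gave 19 higher (4 unsaturated) and 16 lower at 7 h, 1 higher and 8 lower at 24 h, and 17 in the difference. Alternatives chosen after seeing the data were the slides of replicates 2 and 3 only, with 0 higher at 7 h and 0 lower at 24 h, and spike-in scaling, with 0 higher and 0 lower at 7 h, 0 lower at 24 h, and medians of −0.73 and −1.14 over all members and −0.85 and −1.20 over the unsaturated. Leaving out 1 array at a time gave 0 to 15 higher at 7 h (15 without OGD 24 h replicate 1, which enters through the shared spread), 0 to 2 unsaturated higher, 0 to 4 lower at 7 h, 0 to 1 higher and 0 to 4 lower at 24 h, and 0 to 4 in the difference. The medians then ran from −0.00 to 0.09 at 7 h and −0.18 to −0.01 at 24 h over all members, and from −0.16 to −0.02 and −0.26 to −0.05 over the unsaturated. The cause of these changes was not tested.

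The deviations of same-numbered samples correlated weakly, at −0.05, 0.11 and −0.01 (7 h) and 0.08, 0.17 and −0.01 (24 h). Samples of unlike number gave −0.18 to 0.11. With 3 arrays per group these values cannot decide whether the samples were paired by culture. With the slide as a fixed replicate block, 3 members were higher and 2 lower at 7 h and 0 lower at 24 h, and the correlation within slides was 0.0177.

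The 7 h difference of Atp5mc2, which read near the top of the scale, was −0.031 under quantile normalization and −0.15 under normexp, and that of Ndufs5, saturated on 2 control arrays, −0.079 and −0.13. Spike-in scaling, which rested on the 1 of 10 spike-in probe kinds usable on all arrays, moves all probes of an array by 1 constant, so that the values of −0.26 for Atp5mc2 and −0.28 for Ndufs5 follow from its construction. No differences are given for members saturated on all control arrays or not above background.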
